A study of Mus musculus with 12 samples.

Results

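Livers of 3 Siah2 KO males were compared with those of 3 wild type males to ask which transcripts change in male liver when Siah2 is lost. These 6 libraries were taken by sex and genotype from the 12 of the series, and all 23420 gene symbols of their table were considered. The mice were Siah2-/- or wild type on a C57BL/6 background, about 20 weeks old, fed normal chow and kept in light and dark phases of 12 hours each. Livers were taken at Zeitgeber time 10 (ZT10), 10 hours after lights on. Siah2-/- and wild type mice were kept as related lines founded from an intercross of heterozygotes, so the effects of genotype and of line cannot be told apart. Because the knockout is not limited to the liver, neither can effects that arise inside and outside it. Expression was measured with the Lexogen QuantSeq kit, in which priming on the poly(A) tail places each read near the 3′ end of its transcript. The labels speak of RNA pooled from 3 mice while the study describes single livers, as is assumed here, and with pools the spread between libraries would be that between pools.

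The protein SIAH2 belongs to the RING family of E3 ubiquitin ligases, which mark other proteins for destruction by the proteasome, and the clock repressor REVERBα is among its known targets. Its loss can reach transcripts through the factors whose stability it sets. Male mouse liver carries a set of sex-biased transcripts maintained by the pulses of growth hormone and STAT5, the major urinary proteins among them, and it makes cholesterol, bile acids and most plasma proteins.

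Between 1293688 reads (wild type male 1055) and 4056144 reads (knockout male 1081) fell on genes in each library. Rn45s, the ribosomal RNA precursor, took between 6.48% and 17.9% of them, the most in knockout male 1076. All 10 hepatocyte markers, such as Alb and Ttr, passed the filter on low counts, against 1 of 19 markers of pancreas, fat and muscle. The fat marker Cfd, which did not pass, is described with the cell markers below. By the leading log2 distance, which summarises the 500 genes that differ most within a pair of libraries, mice of the same genotype lay between 1.36 and 1.77 apart and mice of different genotype between 1.36 and 1.69. These ranges overlapped, so the males did not separate by genotype on this distance.

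Few genes stood apart between the genotypes. Of 8823 genes with enough reads, 0 (0.0%) were called at an adjusted p of 0.05 by edgeR (quasi-likelihood test with Benjamini-Hochberg adjustment), where the smallest adjusted p was 0.290. A nominal p, meaning one not adjusted for the number of genes, lay under 0.05 for 357 genes (4.05%), with 143 higher (1.62%) and 214 lower (2.43%) in the knockout males. For 789 genes (8.94%) the values of the genotypes did not overlap, and of these 365 were higher (4.14%) and 424 lower (4.81%). With 3 mice of each genotype, full separation corresponds to the smallest two-sided exact permutation p, 0.1. At 8.94% of genes, separation was no more frequent than that, so for a single gene it is not read as a result. The median log2 fold change, knockout over wild type, was −0.011, and 113 genes lay beyond 1 or −1. DESeq2, the tool of the study, called 6 of 16219 genes (0.037%), 4 of them higher (0.0247%) and 2 lower (0.0123%), and limma-voom called 0.

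**Figure D1:**
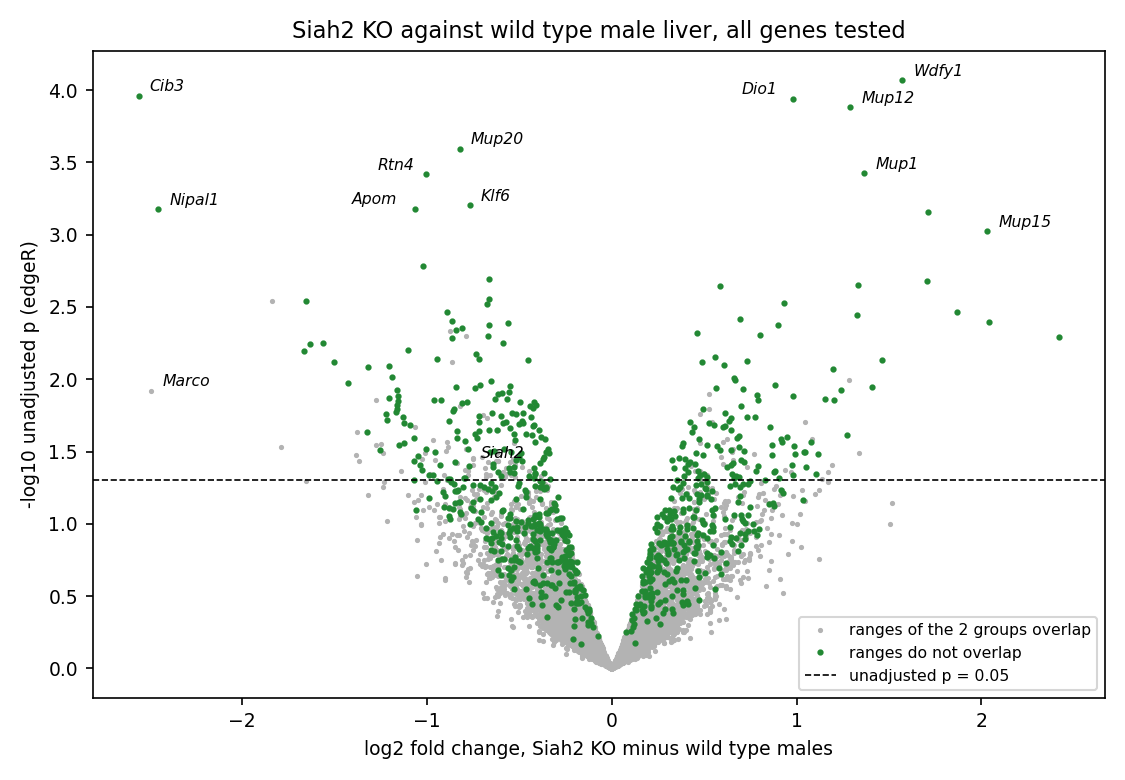
Log2 fold change, Siah2 KO minus wild type males (x axis), against −log10 of the nominal p by edgeR (y axis) for 8823 genes, 1 point per gene, coloured where the values of the genotypes do not overlap. Wdfy1 (1.57) and Cib3 (−2.56) are among the highest points, and 357 points lie above the line at a nominal p of 0.05.

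The 6 genes that DESeq2 called were Wdfy1, Dio1, Mup12 and Mup1, which rose in knockout males, and Cib3 and Mup20, which fell. None of the 6 overlapped between the genotypes. Of the 6, 3 are members of the Mup family.

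Wdfy1 encodes an endosomal protein with a FYVE domain that takes part in signaling from Toll-like receptors, and lies at 79702262 to 79776143 on chromosome 1 of GRCm38.p6. In wild type males 1055, 1086 and 1087 its level was 15.3, 9.14 and 7.71 CPM, edgeR's unit of reads relative to the scaled library total. In knockout males 1075, 1076 and 1081 it was 35.4, 25.8 and 29.3 CPM. Every knockout male was thus above every wild type male, with means of 10.7 ± 4.05 and 30.2 ± 4.86 CPM (SD, n = 3 mice each). Values of other genes are given in the same order of mice, wild type males first. The log2 fold change was 1.57 with a standard error (SE) of 0.29 (edgeR adjusted p = 0.290, DESeq2 adjusted p = 0.0497). Females carried the same direction, with means of 11.96 ± 3.15 and 38.4 ± 12.97 CPM in their own scaling and a log2 fold change of 1.67 (SE 0.34). The effect in males minus that in females was −0.10 (SE 0.47, adjusted p = 0.951 by edgeR), and its sign turned without wild type male 1055 (0.17), without wild type female 1091 (0.11) and by limma-voom (0.034).

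Dio1, at 107291465 to 107307168 on chromosome 4, encodes the type 1 deiodinase, a selenoenzyme that converts and clears thyroid hormones. Its level was 43.7, 52.3 and 58.0 CPM in the wild type males in the same order, and 111, 85.1 and 111 CPM in the knockout males. The lowest knockout male was well above the highest wild type male. The log2 fold change of 0.98 (SE 0.18) gave an adjusted p of 0.290 in edgeR and 0.0200 in DESeq2. In females Dio1 overlapped between the genotypes, with means of 107 ± 20.03 CPM in wild type mice and 75.7 ± 34.8 CPM in knockouts. The effect in males minus that in females was 1.49 (SE 0.39), with an adjusted p of 0.104 in edgeR and 0.0186 in DESeq2.

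Cib3, at 72204335 to 72213086 on chromosome 8, belongs to a family of calcium- and integrin-binding proteins. It measured 13.8, 53.8 and 34.2 CPM in the wild type males and 1.86, 9.61 and 6.36 CPM in knockouts. The wild type males were widely scattered, yet the lowest of them exceeded all knockouts. Its log2 fold change was −2.56 (SE 0.48; edgeR adjusted p = 0.290, DESeq2 adjusted p = 0.00425). In females it was low in both genotypes, at 3.58 ± 3.07 CPM in wild type mice and 3.71 ± 1.52 CPM in knockouts.

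Single mice decided which of the 6 DESeq2 called. Without knockout male 1081 it called 0 genes, without wild type male 1087 it called 1 (Mup12), and without wild type male 1086 it called 17. The sizes were steadier, since with any 1 male left out the log2 fold change in edgeR stayed between 1.36 and 1.86 for Wdfy1. For Dio1 it stayed between 0.90 and 1.11, and for Cib3 between −2.96 and −2.09.

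**Figure D2:**
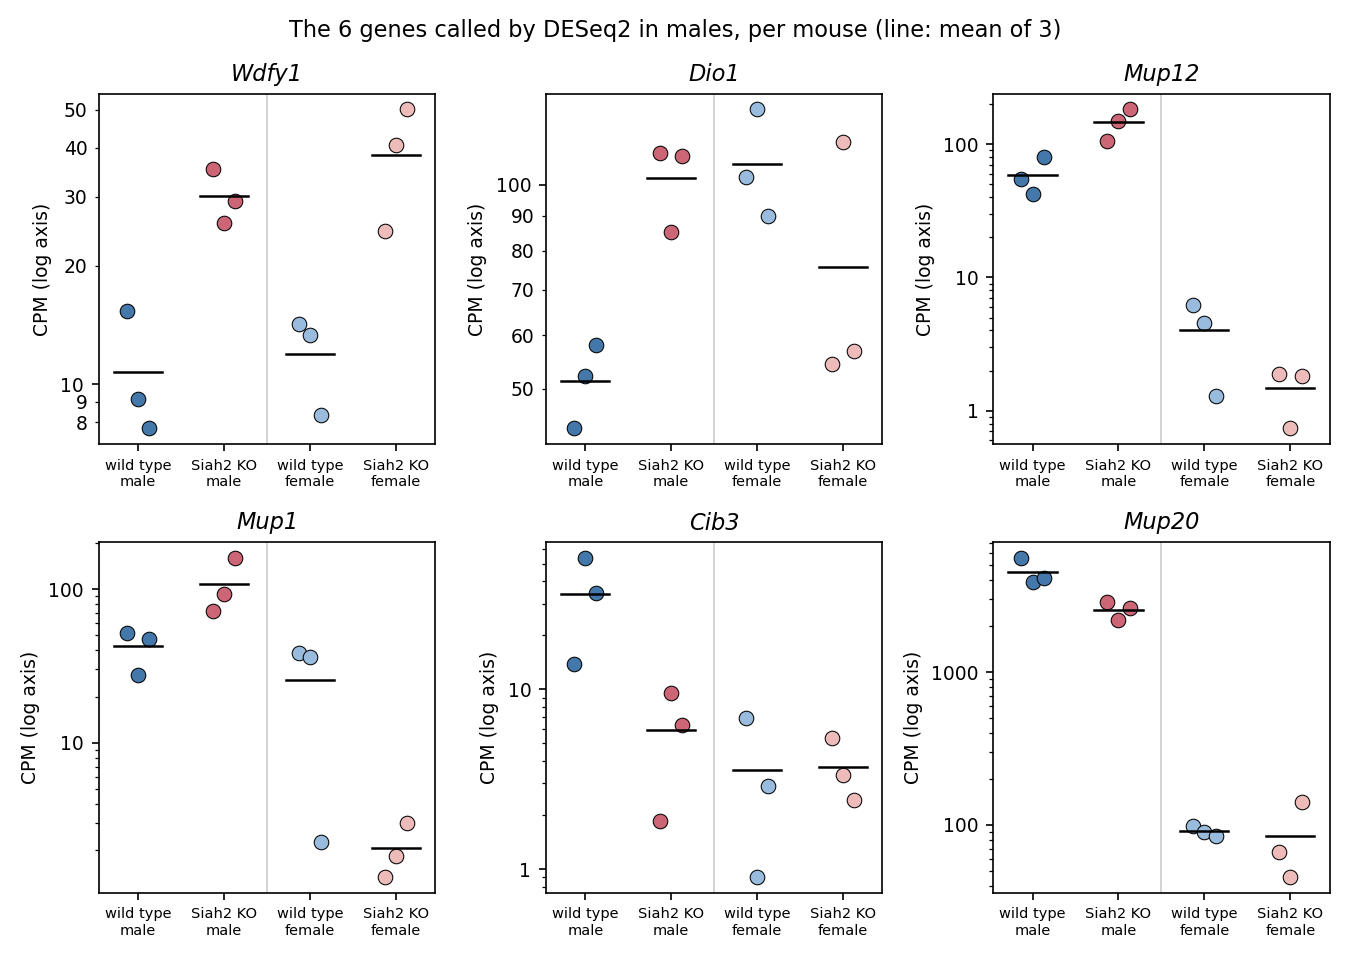
CPM on a log axis for the 6 genes that DESeq2 called in males, 1 point per mouse with a line at the mean of 3 mice, males and females scaled separately. In males the genotypes do not overlap in any panel, and in females Wdfy1 again does not, with 8.36 to 14.2 CPM in wild type mice and 24.5 to 50.1 CPM in knockouts.

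The major urinary proteins are small lipocalins that the liver secretes and that carry pheromones in urine. Mup20, also called darcin, is itself a pheromone of male mice. Of 20 Mup symbols in the table, which arose as recent copies on chromosome 4, 10 had enough reads to be tested. How alike members can be near the gene start is shown by the 250 bases upstream of the RefSeq start of Mup15 and Mup11. The values of both were higher in knockout males without overlap. They are printed 5′ to 3′ from the minus strand of GRCm38.p6, Mup15 from chr4:61439705-61439954 and Mup11 from chr4:60662396-60662645, and capitals mark the longest run they share, 154 bases. Both windows overlap the gene span, since the start used is not the outermost one. On this strand the spans begin at 61439833 for Mup15 and 60662432 for Mup11, so a larger part of the Mup15 window lies inside the gene.
Mup15: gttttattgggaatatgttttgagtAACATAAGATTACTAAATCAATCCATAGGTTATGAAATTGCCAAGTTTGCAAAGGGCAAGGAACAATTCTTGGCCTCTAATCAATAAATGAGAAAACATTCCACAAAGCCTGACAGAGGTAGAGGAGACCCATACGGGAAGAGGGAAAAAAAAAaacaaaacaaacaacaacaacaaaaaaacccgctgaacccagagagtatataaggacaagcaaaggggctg
Mup11: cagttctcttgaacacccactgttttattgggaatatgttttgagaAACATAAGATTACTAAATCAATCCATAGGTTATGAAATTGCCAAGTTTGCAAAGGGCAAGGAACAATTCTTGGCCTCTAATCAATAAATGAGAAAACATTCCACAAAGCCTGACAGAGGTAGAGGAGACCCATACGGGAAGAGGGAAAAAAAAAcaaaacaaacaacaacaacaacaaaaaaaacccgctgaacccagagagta
In a local alignment with its gaps left out, 224 of 225 paired bases were the same (99.6%). Of 32851 RefSeq promoter windows, the shared run stood in those of 5 genes, all from the Mup family, for which 13 of 20 symbols had a window. Mup12, Mup1 and Mup20 were among the symbols without a window. The windows lie at the gene start while reads come from the 3′ end, so they do not show how alike the counted stretches are. Whether reads were assigned to the right member was not tested.

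Members of the family went in opposite directions. Mup20 fell by DESeq2, from 5600, 3892 and 4143 CPM in wild type males to 2895, 2209 and 2617 CPM in knockout males (log2 fold change −0.82, SE 0.17; edgeR adjusted p = 0.449, DESeq2 adjusted p = 0.0144). Mup12 rose by DESeq2, from 54.4, 42.1 and 80.2 CPM to 106, 149.8 and 182 CPM (log2 fold change 1.29, SE 0.25; edgeR adjusted p = 0.290, DESeq2 adjusted p = 0.00425). Mup1 rose as well, from 52.1, 27.4 and 47.5 CPM to 71.9, 93.0 and 159 CPM (log2 fold change 1.37, SE 0.29; edgeR adjusted p = 0.481, DESeq2 adjusted p = 0.0200). For all 3 the highest male of one genotype lay below the lowest of the other. The same held for Mup15, Mup11 and Mup10, with log2 fold changes of 2.03, 1.46 and 0.69, but these rest on few reads. Mup15 had 1, 5 and 12 reads in the wild type males and 26, 16 and 63 in the knockout males. Mup3 (0.090) and Mup7 (0.45) overlapped, and their signs turned when a single mouse was left out, Mup3 without wild type male 1086 (−0.062) and Mup7 without knockout male 1075 (−0.10).

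Of the 20 members, 18 had reads, with a higher mean CPM in knockout males for 13 and a lower one for 5. Mup15 and Mup11 passed the filter on low counts mainly through their reads in the knockout males, so the share of tested members that were higher is not read as a result. The lower members among the 10 tested were Mup20 and Mup21 (−0.62). The family as a whole took 0.833% ± 0.163 of all reads in wild type and 0.677% ± 0.0703 in knockout males (SD, n = 3 each; two-sided exact permutation p = 0.3). The share of Mup20 within it was lower in every knockout male. Mup20 held 58.2%, 58.6% and 46.7% of the family's reads in the wild type males and 41.0%, 35.5% and 36.8% in the knockout males. The shares did not overlap, which follows in part from Mup20 having been called in these same mice, and no test of them is given. The members other than Mup20 and Mup3 summed to 601 ± 273 CPM in the wild type males and 791 ± 114 CPM in knockouts (exact permutation p = 0.4).

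**Figure D3:**
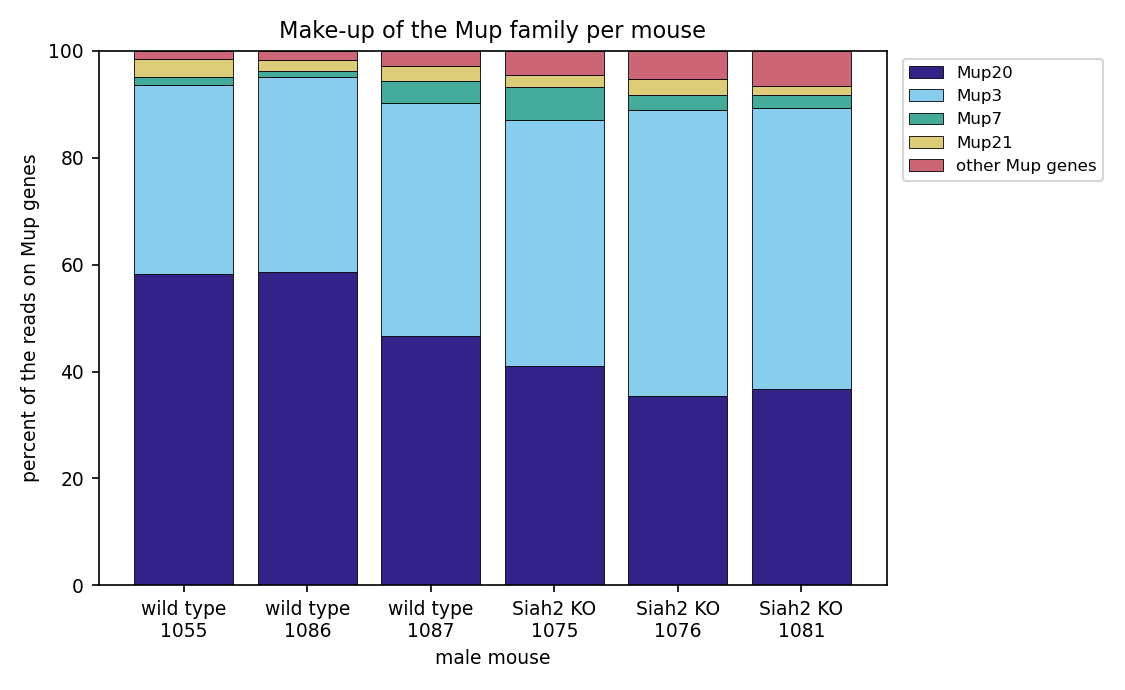
Counted reads on Mup genes as a stacked bar per male (x axis). The y axis gives the percent that fell on Mup20, Mup3, Mup7, Mup21 and the other Mup genes. The Mup20 part is between 46.7% and 58.6% in wild type males and between 35.5% and 41.0% in knockout males.

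Other sex-biased genes were mixed. Of 20 tested male-biased genes, a list that holds Cib3, Mup20 and Mup1, 11 were higher and 9 lower, with a median of 0.11. Ugt2b1, a UDP-glucuronosyltransferase, was without overlap at 162, 164 and 151 CPM against 218, 193 and 257 CPM in knockouts (log2 fold change 0.49, SE 0.16). Of 28 female-biased genes 23 had reads, with a higher mean CPM in knockout males for 9 and a lower one for 14. Only 8 passed the filter on low counts, some of them, such as Nipal1, through the wild type males, so their common direction (lower in value) is not read as a result. At a nominal p under 0.05 were Rtn4, a reticulon that shapes the endoplasmic reticulum, and Nipal1, a magnesium transporter. Rtn4 measured 41.4, 64.0 and 62.9 CPM against 27.9, 31.4 and 25.9 CPM (log2 fold change −1.004, SE 0.22, adjusted p = 0.481 by edgeR). Nipal1 measured 7.67, 15.2 and 7.71 CPM against 0.745, 3.93 and 1.22 CPM (log2 fold change −2.45, SE 0.56, adjusted p = 0.555 by edgeR). Both were lower in every knockout male than in any wild type male. Growth hormone receptor and STAT5 pathway genes were split evenly, 7 higher and 7 lower, with 0 at a nominal p under 0.05.

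Bcl6, a repressor of female-biased genes in male liver that responds to growth hormone, was picked after its values were seen. It measured 78.2, 5.08 and 68.5 CPM against 19.0, 28.4 and 11.98 CPM. In wild type male 1086 it was lower than in all other males, and the genotypes overlapped. The log2 fold change was −1.38 (SE 0.58, adjusted p = 0.9999 by edgeR), and without that male Bcl6 passed (−1.90, adjusted p = 0.0336 by edgeR).

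Cholesterol synthesis had the most genes at a nominal p under 0.05 of any metabolic list. Of 29 tested genes of cholesterol synthesis, uptake and export, 24 were lower and 5 higher in knockout males, with a median of −0.28. At a nominal p under 0.05 there were 9 lower and 1 higher, beside 2.43% and 1.62% over all genes, and neither edgeR nor DESeq2 called any. Among the 9, Hmgcs1 acts on the way to mevalonate. Pmvk and Mvd turn mevalonate into isoprenoid units. Sqle oxidises squalene, Lss then closes the sterol rings, and Cyp51 and Sc4mol act on the sterol once formed. Hmgcs1, Mvd, Lss, Srebf2 and Abcg8 are named here after their values were seen.

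Cyp51, the lanosterol demethylase, measured 883, 614 and 801 CPM against 571, 459 and 526 CPM (log2 fold change −0.56, SE 0.16). Pmvk measured 63.6, 43.2 and 86.1 CPM against 40.2, 40.2 and 29.1 CPM (log2 fold change −0.84, SE 0.25). Sqle measured 40.6, 29.5 and 48.7 CPM against 25.7, 27.5 and 25.9 CPM (log2 fold change −0.60, SE 0.22). For these 3 genes all knockout males were below all wild type males, though for Pmvk and Sqle the margin was small against wild type male 1086.  Hmgcs1, Mvd, Lss and Sc4mol overlapped, with log2 fold changes of −0.53, −0.88, −0.98 and −0.69. Abcg8, a subunit of the transporter that exports sterols into bile, went the other way at 38.3, 56.9 and 57.1 CPM against 70.4, 70.7 and 72.9 CPM (log2 fold change 0.47, SE 0.19). Srebf2, whose product is the main activator of the pathway, had the highest log2 fold change of the list, 0.86 (SE 0.52), at 3.83, 4.06 and 3.70 CPM against 5.96, 12.7 and 3.42 CPM with overlap.

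The size of this difference depended on wild type male 1087, in which 17 of the 29 genes were at their highest. The median deviation of the 29 genes was taken from the mean of the wild type males. It was −0.050, −0.25 and 0.32 in the wild type males and −0.17, −0.48 and −0.21 in the knockout males. Wild type male 1086 thus lay among the knockouts. Without wild type male 1087 the median log2 fold change was −0.059, and without any other male it was between −0.40 and −0.19. Without wild type male 1086, DESeq2 called Cyp51 (−0.69, adjusted p = 0.0186) and Hmgcs1 (−0.73, adjusted p = 0.0495). The sum over the list overlapped, from 5160 to 7618 CPM in wild type and 4549 to 5714 CPM in knockout males (exact permutation p = 0.3).

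**Figure D4:**
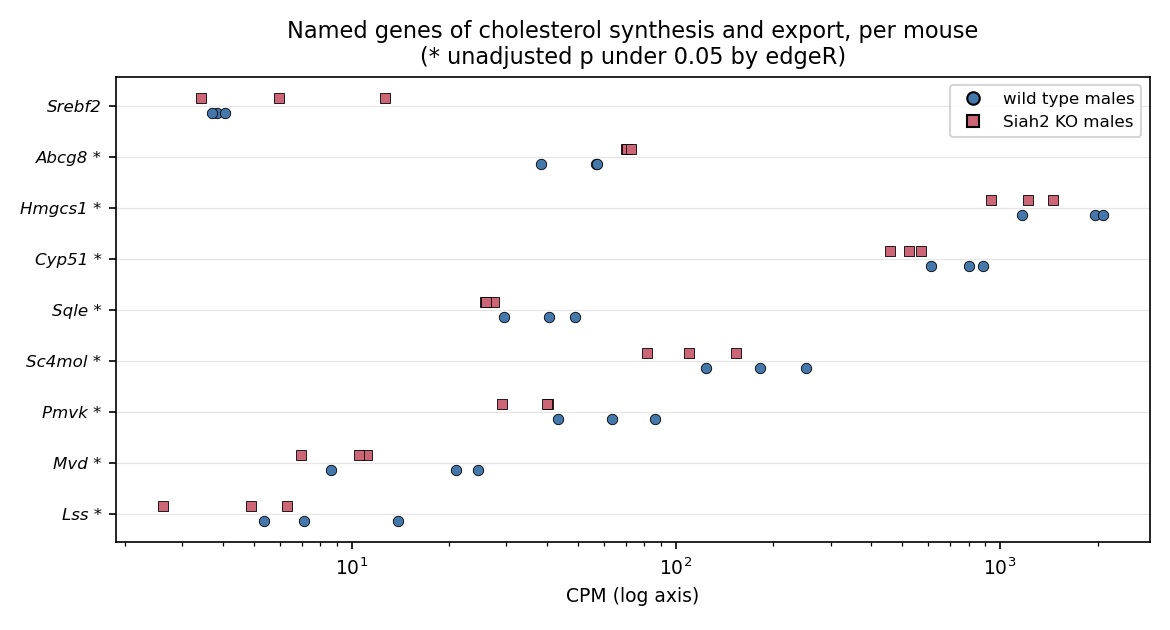
CPM on a log axis (x axis) for the genes of cholesterol synthesis and export named in the text (y axis), 1 point per male, sorted by log2 fold change with a star at a nominal p under 0.05. From Hmgcs1 (−0.53) to Lss (−0.98) most knockout points lie left of the wild type points, and for Abcg8 (0.47) they lie right.

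Other lipid lists were evenly split. Fatty acid oxidation and ketogenesis had 21 higher and 20 lower genes, and fatty acid synthesis and desaturation 12 higher and 13 lower. In the latter, Acly and Acss2, which supply acetyl-CoA, had log2 fold changes of −0.68 and −0.79 with overlap. Bile acid synthesis and transport had 11 higher and 13 lower. Its summed level was higher in each knockout male, 8394 to 8818 CPM against 7851 to 8275 CPM (exact permutation p = 0.1, the smallest possible). Its most abundant members weighed most in this sum. The transporter Slco1b2 averaged 1895 CPM in wild type and 2226 CPM in knockout males, and Scp2 1287 and 1612 CPM. Sums of 37 lists were compared without adjustment for their number, so such a p is not read as a result here or below. Scp2, a sterol carrier and the thiolase that shortens the bile acid side chain, was without overlap at 1280, 1437 and 1144 CPM against 1590, 1564 and 1682 CPM (log2 fold change 0.33, SE 0.14). Cyp8b1, the hydroxylase that directs synthesis to cholic acid, overlapped at 63.6, 33.5 and 43.5 CPM against 59.2, 48.5 and 79.5 CPM.

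In glucose metabolism, Pfkfb3, which makes the activator of glycolysis fructose 2,6-bisphosphate, was higher in value. It measured 17.6, 29.5 and 34.9 CPM against 51.8, 40.6 and 68.2 CPM (log2 fold change 0.94, SE 0.26). Ppargc1a, a coactivator of fasting metabolism, was lower at 49.8, 61.4 and 47.2 CPM against 32.4, 38.0 and 29.6 CPM (log2 fold change −0.67, SE 0.20), as was Khk, the first enzyme of fructose use (−0.36). No overlap was seen for these 3 genes, and the edgeR adjusted p of each was 0.9999. Of 26 genes of glucose and glycogen metabolism, 11 were higher and 15 lower.

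The clock list differed little at this hour. Of 17 tested clock genes 7 were higher and 10 lower, with 0 at a nominal p under 0.05 and a median of −0.085. Nr1d1, the gene of REVERBα, averaged 11.7 CPM in wild type and 11.6 CPM in knockout males (log2 fold change 0.029, SE 0.39). Arntl, the gene of BMAL1, had 1 to 24 reads per library and a log2 fold change of 0.95 (SE 0.65).

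Few genes of the pathways around Dio1 and Wdfy1 accompanied them. Of 14 tested genes of the thyroid hormone axis, 8 were higher and 6 lower. Gpd2, a mitochondrial glycerol phosphate dehydrogenase induced by thyroid hormone, was the other one at a nominal p under 0.05, with 96.6, 159 and 115 CPM against 154, 203 and 163 CPM and overlap (log2 fold change 0.48, SE 0.20). Of 17 other tested genes that encode selenoproteins or serve their synthesis, 9 were higher and 8 lower, with 0 at a nominal p under 0.05.

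Of 25 tested genes of TLR3 and interferon signaling, a list that holds Wdfy1, 6 were higher and 19 lower, with a median of −0.27. Apart from Wdfy1 itself, 5 of 24 were higher. Rsad2, an antiviral enzyme, measured 29.9, 50.3 and 32.4 CPM against 19.7, 23.1 and 21.5 CPM (log2 fold change −0.81, SE 0.24). The immunoproteasome subunit Psmb9 had a log2 fold change of −0.73 (SE 0.29). Neither overlapped between the genotypes, and both were among the 3 lower genes at a nominal p under 0.05 (2.43% over all genes). The list summed to 1470 to 1737 CPM in wild type and 1378 to 1450 CPM in knockout males (exact permutation p = 0.1, the smallest possible), and its median was −0.10 without wild type male 1087.

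**Figure D5:**
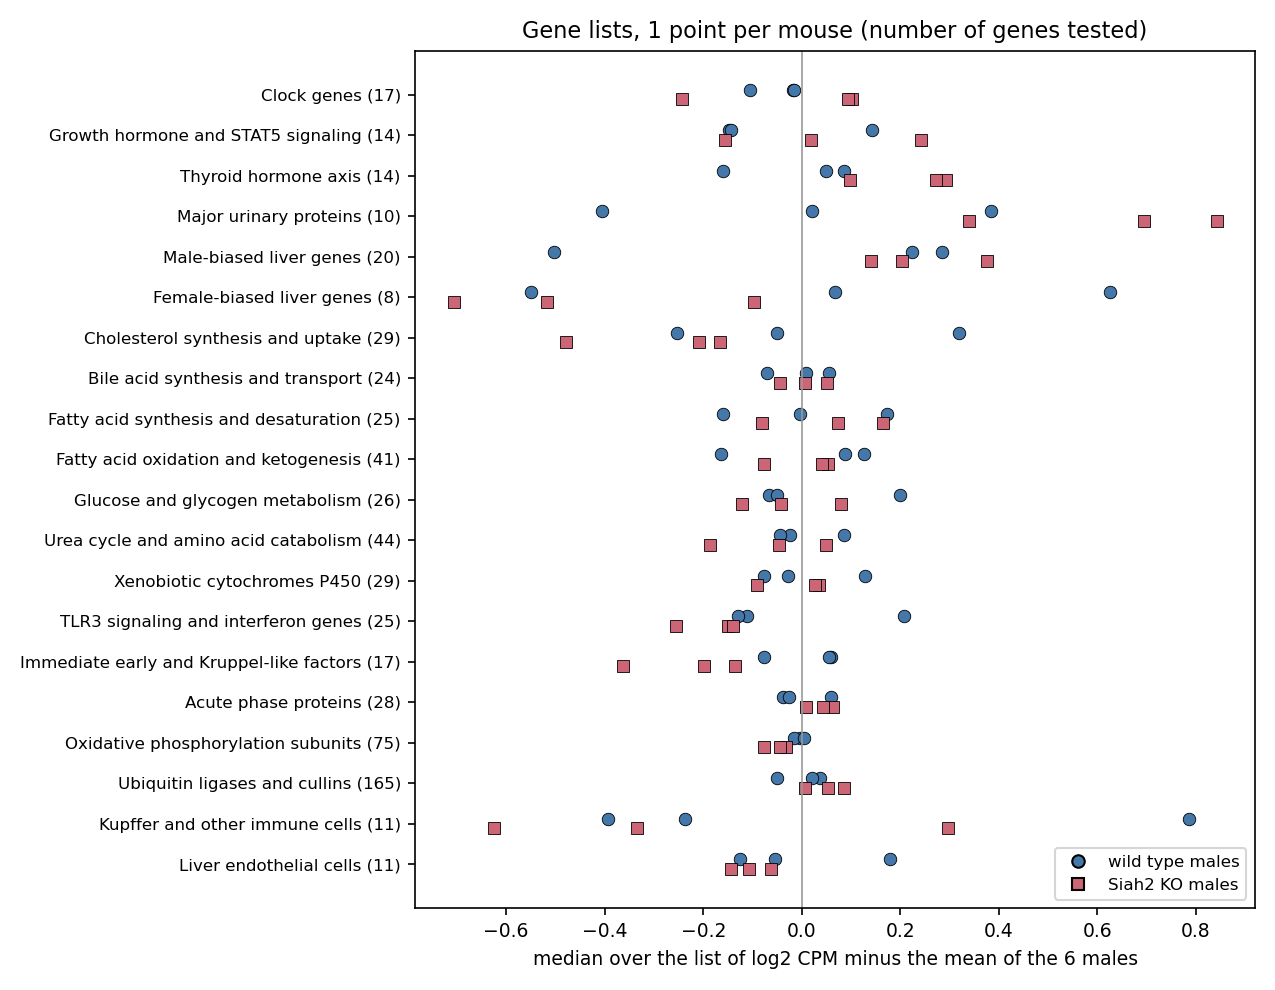
For 20 gene lists, with the number of genes tested in parentheses, the median over the list of log2 CPM minus the mean of the wild type males (x axis), 1 point per male. The mean used is that of the wild type males, although the axis label names 6 males. Clock genes spread from −0.11 to −0.015 in wild type and −0.24 to 0.10 in knockout males, and cholesterol genes from −0.25 to 0.32 and −0.48 to −0.17.

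Among the remaining genes at 10 CPM or more and a nominal p under 0.05, the largest differences without overlap fell on genes of varied function. Higher in value were Aatk, a membrane-bound kinase (1.33), Slc17a8, a vesicular glutamate transporter (0.98), Pi4k2b, a phosphatidylinositol kinase (0.90), Vnn1, the pantetheinase (0.89), and Actr1b of the dynactin complex (0.86). Aatk measured 16.9, 36.6 and 24.7 CPM against 109, 38.4 and 52.1 CPM, with knockout male 1076 barely above the wild type males. Lower in value were Apom, which carries sphingosine 1-phosphate on HDL (−1.07), Smoc2, a matrix protein (−1.10), Slc17a4, an organic anion transporter (−1.02), and Marveld2 of tricellular junctions (−0.96). With them were the lectin-like Clec2h (−0.94), the mRNA export factor Alyref (−0.92), the Wnt receptor Fzd7 (−0.89) and the RNA-binding protein Rbms2 (−0.88). Apom measured 67.5, 82.3 and 79.0 CPM against 32.4, 53.3 and 25.7 CPM and had the smallest adjusted p of these 13 genes, 0.555 by edgeR. DESeq2 called Apom (−1.39, adjusted p = 0.00292) and Aatk (1.63, adjusted p = 0.0412) without knockout male 1076.

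Of 17 tested immediate early and Krüppel-like factor genes, 12 were lower, 3 of them at a nominal p under 0.05 (2.43% over all genes), and the median was −0.15. The zinc finger factor Klf6 measured 92.8, 133 and 111 CPM against 66.7, 66.8 and 65.0 CPM (log2 fold change −0.77, SE 0.17, adjusted p = 0.555 by edgeR), and the immediate early gene Ier2 50.6, 30.0 and 33.0 CPM against 22.4, 16.2 and 22.3 CPM (log2 fold change −0.86, SE 0.25). In both, every wild type male exceeded every knockout. Egr1 varied widely within each genotype, at 175, 8.63 and 65.4 CPM against 7.82, 10.5 and 47.4 CPM.

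Detoxification and secreted protein lists held few differences. Xenobiotic cytochromes P450 had 15 higher and 14 lower, with Cyp2c37 (−0.52) the 1 gene at a nominal p under 0.05. Phase II and antioxidant enzymes had 23 higher and 27 lower, and among them Gsto1, a glutathione transferase, measured 65.2, 68.5 and 54.6 CPM against 40.2, 40.2 and 38.1 CPM (log2 fold change −0.66, SE 0.18). Acute phase proteins had 16 higher and 12 lower, and complement and coagulation factors 24 higher and 18 lower. Saa4, a serum amyloid of HDL, was without overlap (0.42). Hamp2, related to hepcidin, measured 19.2, 89.4 and 30.5 CPM against 16.0, 19.7 and 5.38 CPM (−1.84), with wild type male 1086 far above the rest.

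Genes of protein turnover, in which SIAH2 acts, were balanced. Of 165 tested genes of ubiquitin ligases and cullins, 89 were higher and 76 lower, with a median of 0.0050, and of 37 proteasome subunits 19 were higher and 18 lower. At a nominal p under 0.05 were 4 of the 165 (2.42%), below the 4.05% over all genes, so the count is no result about the family. They were Fbxo7 (0.73) and Rnf150 (0.98), higher, and Ube2o (−1.15) and Ube2z (−0.42), lower. Oxidative phosphorylation subunits had 26 higher and 49 lower with a median of −0.072, Atp5f1 (−0.41), Cox5a (−0.39) and Cox7a2 (−0.35) among the lower. Cytosolic ribosomal proteins had 29 higher and 49 lower, and heat shock and ER stress genes 18 higher and 13 lower.

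Siah2 itself, at 58674949 to 58692439 on chromosome 3, measured 16.9, 27.4 and 21.3 CPM in the wild type males and 9.31, 17.5 and 14.9 CPM in mice labelled as knockouts. The genotypes overlapped (log2 fold change −0.67, SE 0.29, adjusted p = 0.9999 by edgeR). The sources used here do not place the 3′ tag inside or outside the deletion, so its reads are no check of the labels. Within 10 Mb of Siah2, where a knockout line can differ from wild type through linked sequence, 45 genes were tested, 25 higher and 20 lower with a median of 0.047. At a nominal p under 0.05 were 3 of them (6.67%, beside 4.05% over all genes), Postn (−1.16), Commd2 (0.64) and Rarres1 (0.49).

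Markers of immune cells moved with a single mouse, while the sum of the bile duct markers was lower in every knockout male. In bulk tissue fewer cells of a type and less RNA per cell cannot be told apart. Of 11 tested markers of Kupffer and other immune cells, 2 were higher and 9 lower, with sums of 129.9 to 735 CPM in wild type and 147 to 317 CPM in knockout males, and Cd3e, Cd79a and S100a8 had 0 reads. Marco, a scavenger receptor of Kupffer cells, measured 29.9, 245 and 5.24 CPM against 23.5, 15.7 and 11.3 CPM. Its log2 fold change of −2.49 rested on wild type male 1086, without which it was 0.14 and the median of the list went from −0.33 to 0.40. Endothelial markers had 2 higher and 9 lower, with sums of 348 to 414 and 338 to 363 CPM that overlapped and a median of −0.16, which stayed between −0.19 and −0.063 with any 1 male left out. Of 8 bile duct markers 3 were tested and lower, Spp1 (−0.86) and Tstd1 (−0.55) at a nominal p under 0.05. The other, Sox9 (−0.48), overlapped at 16.8 to 21.5 CPM in wild type and 9.17 to 16.9 CPM in knockout males. The sum of all 8 did not overlap, at 139.5 to 197 CPM in wild type and 103 to 127 CPM in knockout males (exact permutation p = 0.1, the smallest possible). Most of this sum was Tstd1, with means of 116 CPM in wild type and 79.6 CPM in knockout males. The median of the 3 tested stayed between −0.67 and −0.50 with any 1 male left out. The defining Krt7, Krt19 and Epcam had 13, 3 and 19 reads over the 6 males. Cfd, a fat marker that did not pass the filter, had 115 reads over the 6 males, 60% of them in knockout male 1075. It measured 2.30, 0.508 and 2.47 CPM against 25.7, 3.49 and 6.36 CPM, and edgeR with no filter called it (2.69). The fat markers Adipoq, Plin1 and Lep had 1, 0 and 1 reads. The part of these markers in the differences described was not tested.

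The metallothioneins Mt1 and Mt2, which bind zinc and respond to metals and glucocorticoids, also turned on wild type male 1086. Mt1 measured 33.0, 157 and 36.7 CPM against 196, 139 and 218 CPM, and Mt2 37.6, 319 and 58.0 CPM against 326, 192 and 373 CPM. That male lay within the range of the knockouts, and the other wild type males were low. With all 6 males the log2 fold changes were 1.29 (SE 0.43) and 1.10 (SE 0.54), both at an edgeR adjusted p of 0.9999. Without it edgeR called 3 genes, Mt1 (2.41, adjusted p = 0.000541), Mt2 (2.61, adjusted p = 0.00111) and Bcl6.

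Whether the response of males differed from that of females was tested in a fit of all 12 mice, as the effect in males minus that in females. Of 9806 genes, edgeR called 25 (0.255%), 9 positive (0.0918%) and 16 negative (0.163%), and 1382 (14.1%) had a nominal p under 0.05. Of the 6 genes that DESeq2 called in males, Mup1 was among the 25. For Cib3 the difference was −2.72 (SE 0.91, adjusted p = 0.180 by edgeR and 0.0923 by DESeq2). For Mup12 it was 2.69 (SE 0.67), with an adjusted p of 0.0946 by edgeR, 0.00716 by DESeq2 and 0.00812 by edgeR without wild type female 1091. Single mice decided the count, which was 4 without wild type male 1055, 0 without any other male and 522 without wild type female 1091.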

How the data were processed

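QuantSeq had been run on livers of 12 mice at ZT10, 3 per sex and genotype. Trimming, mapping and counting were done by the authors on BaseSpace, and the deposited table for each sex holds raw read counts per gene symbol. The submitters' processing notes name STAR, DESeq and mm10, without versions. Neither the annotation nor the strand setting of the counting is given in the sources used here. Reads had no molecular identifiers, so limits from counting cover counting error only, with 3 reads as the floor.

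The 6 males were fitted alone with edgeR 4.0.16 under R 4.3.3, using filterByExpr, TMM scaling, the two-sided quasi-likelihood F test and Benjamini-Hochberg adjustment over all genes tested (threshold 0.05). Standard errors follow from the F statistic. CPM are counts relative to TMM-scaled totals. The alternatives were DESeq2 1.42.0, limma-voom (3.58.1), RLE scaling, a filter of 1 or of 10 counts in place of filterByExpr, removal of Rn45s, thinning to 1293688 reads, a fit of all 12 mice and leaving out each male. DESeq2 without each male, and the sex difference without wild type female 1091, were added after seeing the data. Lists were described by counts and medians. Sums, those of all 37 lists included, were compared with two-sided exact permutation tests over mice, without adjustment for their number. In counts simulated for 8823 genes of the males, sets of 55, 70 and 75 genes were made to differ by 1, 2 and 3 on the log2 scale. Of these sets edgeR recovered 50.9%, 90% and 94.7%, with 14 false among 176 calls. Adjusted p values depend on how many genes differ, and in the real males edgeR called 0. The rates are therefore not read as what edgeR could find there, where Cib3 (−2.56) and Nipal1 (−2.45) were not called.

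Genes were named by rule: Siah2, genes called by edgeR or DESeq2, the 10 largest differences in each direction without overlap at 10 CPM or more and a nominal p under 0.05, up to 4 of lowest p per list, those near Siah2 at that p, the 3 per direction with most reads among genes called with no filter, and the most abundant transcript. Bcl6, Nnt, Mup3, Mup7, Mup10, Mup11, Mup21, Nr1d1 and the cholesterol genes so marked were chosen after their values were seen. Some genes that the rule names are not reported here. Members and lists were chosen with earlier results of these data known. Symbols turned into dates (27) stayed in totals only. RefSeq positions and promoters are on GRCm38.p6, matched by symbol for 23230 genes. Summaries and figures used Python 3.11.15 (pandas 2.3.3, numpy 2.4.6, scipy 1.17.1, matplotlib 3.10.9).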

Additional observations from a re-analysis of the deposited data

Results flagged for a closer look

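For 4 of the named genes the effect of genotype differed between the sexes, by the interaction test in edgeR's quasi-likelihood fit of all 12 mice.

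For Mup1 the effect in males minus that in females was 5.07 on the log2 scale (SE 0.97, adjusted p = 0.0474). Mup1 measured 38.3, 36.0 and 2.25 CPM in wild type females 1089, 1090 and 1091 against 1.35, 1.84 and 3.02 CPM in knockout females, so wild type female 1091 lay among the knockouts. For Cyp8b1 the difference was 2.29 (SE 0.37, adjusted p = 0.0460), with means of 78.7 ± 16.6 CPM in wild type and 21.7 ± 0.597 CPM in knockout females.

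For Alyref it was −2.82 (SE 0.56, adjusted p = 0.0474). Alyref was higher in every knockout female, 18.2 ± 4.81 against 4.89 ± 2.72 CPM, and lower in every knockout male, 7.22 ± 2.14 against 13.6 ± 2.43 CPM. For Pgk1, a glycolytic enzyme, it was −2.16 (SE 0.35, adjusted p = 0.0460), with 27.8 ± 6.80 CPM in wild type and 95.2 ± 6.72 CPM in knockout females and 47.4 ± 12.9 and 36.9 ± 7.37 CPM in the males.

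With any 1 male left out the directions held, from 4.66 to 5.31 for Mup1, 2.09 to 2.54 for Cyp8b1, −3.07 to −2.66 for Alyref and −2.32 to −1.89 for Pgk1, while the highest adjusted p became 0.146 for Mup1, Cyp8b1 and Pgk1 and 0.160 for Alyref. DESeq2 also called all 4.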

How the results depend on the processing

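Calls in the males depended on tool and filter. Against 0 by edgeR, DESeq2 called 6 (4 higher, 2 lower) and edgeR with no filter 29 (15 higher, 14 lower), of which 14 did not overlap between the genotypes. The prior degrees of freedom, 9.79 with the filter, were infinite without it. The other planned settings with all mice, limma-voom included, gave 0. With a male left out edgeR called 0 to 3 (0 to 2 higher, 0 to 1 lower). DESeq2 called 3 (2 higher, 1 lower) without wild type male 1055, 17 (11 and 6) without 1086, 1 (1 and 0) without 1087, and 5 (2 and 3), 4 (2 and 2) and 0 without knockout males 1075, 1076 and 1081. The sex difference, 25 genes (9 positive, 16 negative), gave 265 (111 and 154) with DESeq2, 522 (209 and 313) without wild type female 1091, and 0 to 4 (0 to 1 and 0 to 3) with a male left out.

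The median of the genes near Siah2 was 0.14 with thinning and from −0.014 to 0.093 with a male left out. Of 532 recomputed list medians 31 moved beyond the spread between mice, and of 1740 recomputed log2 fold changes 13 reversed, none of a gene that DESeq2 called with all males. Marco, which reversed, is among the 29 that edgeR called with no filter. With a male left out, Bhlhe40 ran from −0.51 to 0.0077, Marco from −3.07 to 0.14, Mup3 from −0.062 to 0.25, Mup7 from −0.10 to 1.34 and Rn45s from −0.46 to 0.37. In DESeq2 the reversed values were 0.012 for Bhlhe40 without wild type male 1087, 0.015 for Marco and −0.070 for Mup3 without 1086, −0.091 for Mup7 without knockout male 1075, and for Rn45s −0.010 without wild type male 1055 and −0.46 without knockout male 1076. In limma-voom Rn45s was at −0.065. The sex difference of Wdfy1 reversed in limma-voom (0.034) and without wild type female 1091 (0.11), and ran from −0.30 to 0.17 with a male left out. The causes were not tested.

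No paired analysis was possible because the genotypes share no mouse numbers. Depth limits low genes most, since 3 reads equal 2.32 CPM in wild type male 1055.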

Other observations

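Chromosome 13 had the highest share of tested genes at a nominal p under 0.05 of all chromosomes, with 5 higher and 21 lower of 333 (7.81%, against 4.05% over all genes). Klf6, Slc17a4, Marveld2, Hmgcs1 and Mccc2, a gene of amino acid catabolism (−0.59), lie on it. So does Nnt, the mitochondrial transhydrogenase that is defective in one substrain of C57BL/6, which was picked after its values were seen. Nnt spans 119335527 to 119409257, and Hmgcs1 of the cholesterol list lies near it, at 119690351 to 119708260. Whether position bears on these differences was not tested. Nnt had 52, 142 and 206 reads in wild type males and 73, 102 and 108 in knockout males (log2 fold change −0.87, SE 0.26, adjusted p = 0.9999 by edgeR). Its reads were thus present in all 6, but reads near the 3′ end do not show which form of Nnt a mouse carried.

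Cdh1, which encodes E-cadherin and marks periportal hepatocytes, measured 347, 185 and 369 CPM against 169.5, 139 and 213 CPM with overlap (log2 fold change −0.79, SE 0.24). DESeq2 called Cdh1 without wild type male 1086 (−1.03, adjusted p = 0.000915). Of 11 tested periportal markers, 4 were higher and 7 lower, with a median of −0.12, so Cdh1 does not stand for the list. Alas2, the red cell enzyme of heme synthesis, measured 105, 84.8 and 86.7 CPM against 139, 104 and 153 CPM with overlap (log2 fold change 0.53, SE 0.18). The 4 globin genes listed had 0 reads in every male, so they give no measure of blood content, which was not tested. Serpina1e, an antitrypsin, measured 2979, 1143 and 3808 CPM against 3534, 2577 and 6019 CPM, lowest in wild type male 1086.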
